A study of Callithrix jacchus with 20 samples.

Results

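The keratins and the genes of the desmosome were followed through 10 conditions of marmoset cells on their way from induced pluripotent stem cells (cjiPSCs) to primordial germ cell-like cells (cjPGCLCs). Members were chosen by symbol: every keratin (KRT and a number), the desmocollins DSC1 to DSC3, the desmogleins DSG2 to DSG4, the plakophilins PKP1 to PKP4, the plaque and linker genes DSP, JUP, PPL and EVPL, the membrane gene PERP, and VIM, DES and NES, which encode intermediate filament proteins that are not keratins. This gave 47 of the 25102 genes in the count table, of which 29 were keratins. KRT7, named in many accounts of simple epithelium, has no entry under that symbol, but the entry LOC100394518 carries the gene ID that RefSeq gives to KRT7. It is described below and was not counted among the members.

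All cells came from 1 line, DPZ_cjiPSC#2, so no other line or animal stands behind these values. RNA-seq was made from 2 biological replicates of each condition, 20 libraries in all. The cjiPSCs were kept without feeder cells in TESR medium or in cjPSCM. Pre-ME, the precursor of mesendoderm, was induced from each of these cultures with the GSK3 inhibitor CHIR and a ROCK inhibitor, and either with or without Activin A (ActA). The pre-ME of the cjPSCM cultures, with and without ActA, was then aggregated into embryoid bodies in a medium with BMP4, LIF, SCF, EGF and the ROCK inhibitor, and on day 4 double-positive cells (cjPGCLCs) and double-negative cells (here somatic cells) were sorted. The sample labels give EpCAM as one of the sort markers, while the study's design and methods give INTα6 and CXCR4. In these data all 3 genes, CXCR4, ITGA6 and EPCAM, were higher in cjPGCLCs than in somatic cells in both ActA arms.

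Keratins form filaments from pairs of a type I chain (among them KRT10, KRT18 and KRT19) and a type II chain (among them KRT7, KRT8, KRT76 and KRT80), and KRT8 with KRT18 is the first pair made in the embryo and the usual pair of simple epithelium. Desmosomes hold neighbouring cells together: desmocollins and desmogleins meet between the cells, plakoglobin (JUP) and plakophilins bind their tails, and desmoplakin (DSP) ties this plaque to the keratin filaments. Vimentin, desmin and nestin are the filament proteins best known from mesenchyme, muscle and neural progenitors, in that order.

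Levels below are the authors' normalised counts, which are reads on a gene divided by a size factor of the library. They are not divided by gene length and so compare 1 gene across libraries, not genes with each other. "Rose" and "fell" mean an adjusted p below 0.05 in edgeR's quasi-likelihood test with Benjamini-Hochberg adjustment over all 15797 genes tested. A gene was called where its log2 fold change was also beyond 2 in either direction. Comparisons of pre-ME with cjiPSCs, and of day 4 cells with pre-ME, used the mean of the ActA arms with equal weight. A change given for such a step may therefore lie mainly in a single arm. Between 4784964 and 22067099 reads per library were counted on genes, and the somatic libraries were among the shallowest. The replicates of cjiPSCs in cjPSCM differed most: the log2 difference between them had an SD over genes of 0.96, against 0.31 to 0.62 in the other conditions. These are bulk samples, in which fewer cells of a type and less RNA per cell cannot be told apart.

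Of the 47 members, 19 passed the filter on low counts: 5 of 29 keratins (KRT8, KRT10, KRT18, KRT19 and KRT76), 3 of 6 desmosomal cadherins (DSC2, DSC3 and DSG2), 3 of 4 plakophilins (PKP1, PKP2 and PKP4), the 5 genes DSP, JUP, PPL, EVPL and PERP, and the 3 genes VIM, DES and NES. The 28 others were nearly silent. Among the 24 keratins that were not tested, which include KRT5, KRT13, KRT15 and KRT17 of stratified epithelium, the highest count in any library was 17, and 16 had no library above 3 reads. DSG3 and DSG4 had 1 read each in all 20 libraries together, DSC1 had 37 and PKP3 had 18.

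KRT8 was high in TESR medium and on day 4 and low in cjPSCM and its pre-ME. cjiPSCs had 2037 and 4067 normalised counts in TESR medium and 778 and 918 in cjPSCM. Pre-ME from TESR had 2909.9 and 1528 without ActA and 5225 and 3423 with ActA, while pre-ME from cjPSCM had 546 and 321 without ActA and 529.8 and 209 with ActA. On day 4 somatic cells had 2949.6 and 1683 without ActA and 2015 and 1269 with ActA, and cjPGCLCs had 3719.8 and 2366 without ActA and 2279 and 1696 with ActA. All 8 day 4 libraries lay above all 4 libraries of the pre-ME they came from. KRT8 was called in both fractions, with a log2 fold change over pre-ME of 2.25 ± 0.33 (SE) in somatic cells (adjusted p = 1.88e-05) and of 2.60 ± 0.33 in cjPGCLCs (adjusted p = 4.47e-06). It was 3.63-fold lower in cjPSCM than in TESR medium (log2 fold change -1.86 ± 0.45, adjusted p = 0.00379).

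KRT18, the partner of KRT8, was likewise high in TESR medium and on day 4 and low in cjPSCM and its pre-ME. cjiPSCs had 1647 and 2777 normalised counts in TESR medium and 743 and 642 in cjPSCM. Pre-ME from TESR had 2111 and 1146 without ActA and 5417 and 3809 with ActA, and pre-ME from cjPSCM had 519 and 395 without and 805 and 400.3 with ActA. On day 4 somatic cells had 1822 and 1377 without and 1771 and 1752 with ActA, and cjPGCLCs had 1618 and 1113 without and 1442 and 1506 with ActA. As for KRT8, no day 4 library overlapped with the pre-ME. KRT18 rose by 1.65 ± 0.24 on the log2 scale in somatic cells and by 1.42 ± 0.23 in cjPGCLCs (adjusted p = 1.75e-05 and 7.39e-05), and it fell by 1.68 ± 0.33 from TESR medium to cjPSCM (adjusted p = 0.000844).

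Of the pair, KRT18 passed the test of ActA in pre-ME from TESR. With ActA, KRT18 rose by 1.502 ± 0.32 in pre-ME from TESR (adjusted p = 0.00623), although the p was 0.132 without replicate 2 of the pre-ME without ActA and 0.0872 without replicate 1 of the pre-ME with ActA. In pre-ME from cjPSCM the KRT18 libraries with and without ActA overlapped, and the test of the difference between the media did not call KRT18 or any other member. The ratio of KRT8 to KRT18 counts within a library, which no scaling between libraries can move, was lower with than without ActA at each stage. It was 0.964 and 0.899 in pre-ME from TESR with ActA against 1.38 and 1.33 without, 0.658 and 0.523 in pre-ME from cjPSCM with ActA against 1.05 and 0.812 without, and 1.58 and 1.13 in cjPGCLCs with ActA against 2.30 and 2.13 without. The pairs did not overlap in any of the 4 arms, somatic cells included (1.14 and 0.724 with ActA, 1.62 and 1.22 without). This ratio was looked at after the levels were seen and is given with no test.

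KRT8 fell further between cjiPSCs and pre-ME in cjPSCM, by 1.04 ± 0.38 (adjusted p = 0.0458), close to the threshold. Leaving out any of 4 libraries ended this call: replicate 1 or 2 of the cjiPSCs (adjusted p = 0.132 and 0.113), replicate 2 of the pre-ME with ActA (0.134) or without (0.128). DESeq2 gave 0.0667.

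KRT19, a type I keratin of simple epithelium, rose on day 4 in both fractions. Pre-ME from cjPSCM had 454 and 292 normalised counts without ActA and 271 and 163 with ActA. Somatic cells had 1369.8 and 888 without and 1277 and 1035 with ActA, and cjPGCLCs had 1403 and 717 without and 882 and 728 with ActA, so that again no library overlapped. The log2 fold changes were 1.97 ± 0.48 in somatic cells (adjusted p = 0.00234) and 1.69 ± 0.48 in cjPGCLCs (adjusted p = 0.00657). The replicates of cjiPSCs in cjPSCM disagreed about KRT19, with 71.6 and 1094, and no comparison of KRT19 with these cells passed the test. All these day 4 changes of KRT8, KRT18 and KRT19 stayed past the adjusted p threshold when any 1 of their libraries was left out.

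**Figure D1:**
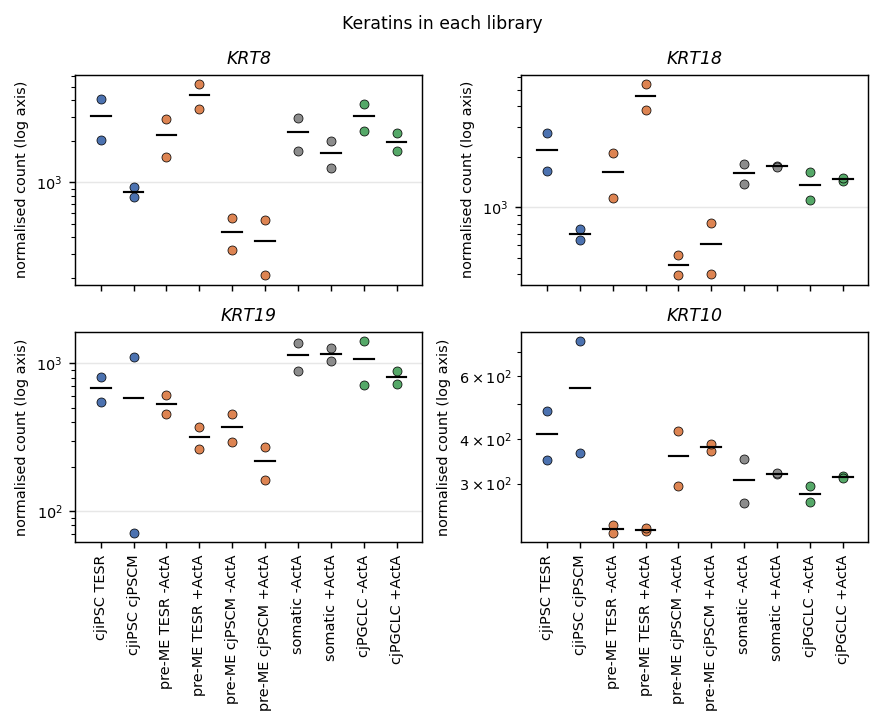
Normalised counts (log axis) of KRT8, KRT18, KRT19 and KRT10 in each of the 20 libraries. Points are libraries, 2 for each condition, and the line is their mean; blue marks cjiPSCs, orange pre-ME, grey somatic cells and green cjPGCLCs. KRT8 and KRT18 have their lowest means in pre-ME from cjPSCM, and the 2 KRT19 points of cjiPSCs in cjPSCM lie at 71.6 and 1094.

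The other keratins gave smaller or weaker signals. KRT10, which is known from the upper layers of the epidermis, lay between 219 and 749.8 normalised counts in all libraries. It fell by 0.86 ± 0.22 from cjiPSCs to pre-ME in TESR (adjusted p = 0.00456, and 0.0764 without replicate 2 of the cjiPSCs). In cjPSCM it fell by 0.59 ± 0.22 (adjusted p = 0.0465), with an overlap, but this rested on cjiPSC replicate 1, which had 749.8 against 365 in replicate 2: without replicate 1 the change was 0.051, and without replicate 2 it was -1.03. Leaving out replicate 1 of the pre-ME without ActA or either replicate of the pre-ME with ActA also lost the call (adjusted p = 0.147, 0.0987 and 0.0857). KRT76, a type II keratin, had 12 and 1 reads in cjiPSCs in TESR medium and 25 and 9 in cjPSCM, at most 3 in any pre-ME library and 0 in all 8 day 4 libraries. It passed the filter only through its reads in cjiPSCs, so a lower level in pre-ME followed from the filter and is a description (adjusted p = 0.0252 in TESR and 0.00103 in cjPSCM). In TESR its libraries overlapped, and the p rose past the threshold with DESeq2 (0.228) and without cjiPSC replicate 1 (adjusted p = 0.671) or replicate 2 of either pre-ME (0.0817 without ActA, 0.0588 with ActA).

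In cjiPSCs the low counts of 2 type II keratins differed between the media. KRT80 had 11 and 17 reads in cjiPSCs in TESR medium and 0 and 0 in cjPSCM, so it was at least 4.31-fold higher in TESR medium against a floor of 3 counts per library. The TESR replicates had 6.06 and 25.3 normalised counts, and the bound was 6.96-fold without replicate 1 and 1.67-fold without replicate 2. In pre-ME from TESR it had 14 and 13 reads with ActA and 1 and 1 without, and in the 12 other libraries, all from cjPSCM, no more than 1 read. KRT80 failed the filter, and in the fit without a filter it passed the test between the media (adjusted p = 0.000172) and for ActA in pre-ME from TESR (adjusted p = 0.00442). The entry of KRT7, which is the neighbour of KRT80 in the RefSeq gene order, had 25 and 17 reads in TESR cjiPSCs and 2 and 3 in cjPSCM (log2 fold change -2.62 ± 0.72, adjusted p = 0.0105, 0.0957 without replicate 1 of cjPSCM and 0.0613 on the 4 libraries alone). It had 12 to 33 reads in the pre-ME libraries from TESR and 1 to 12 in those from cjPSCM. On day 4 it had 1 read in 1 of the 4 somatic libraries and 0 in the others, and 3, 4, 0 and 0 reads in cjPGCLCs, with none in the 4 sorted libraries from pre-ME with ActA. It passed the test as lower than in pre-ME in both fractions (adjusted p = 0.0151 in somatic cells and 0.0257 in cjPGCLCs), the opposite direction to KRT8, KRT18 and KRT19, although the ranges overlapped. In somatic cells this was lost without replicate 1 of the pre-ME with ActA (0.112) or replicate 2 of the somatic cells without ActA (0.0512), and in cjPGCLCs without any of 4 libraries (0.0552 to 0.175) and with DESeq2 (0.0513). KRT10, KRT80 and PKP4 were chosen for description after their values were seen.

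Desmoplakin was called at the step to pre-ME in TESR and at the step to day 4. DSP had 458 and 654 normalised counts in cjiPSCs in TESR medium and 225 and 636 in cjPSCM. In pre-ME from TESR it had 2623 and 2033 without ActA and 5020.1 and 3024 with ActA, and in pre-ME from cjPSCM 666 and 418 without and 1106 and 661 with ActA. On day 4 somatic cells had 4347 and 3756 without and 3017 and 2443 with ActA, and cjPGCLCs had 6755 and 4715 without and 3041 and 2716 with ActA. The libraries of TESR pre-ME and of both day 4 fractions lay above those of the cells they came from with no overlap, and in cjPSCM cjiPSCs and pre-ME overlapped. DSP was called at 2.49 ± 0.36 between cjiPSCs and pre-ME in TESR (adjusted p = 5.58e-05), at 2.24 ± 0.27 between pre-ME and somatic cells (adjusted p = 2.58e-06) and at 2.54 ± 0.27 between pre-ME and cjPGCLCs (adjusted p = 7.48e-07). These 3 results stayed past the adjusted p threshold without any 1 library.

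Plakoglobin moved the other way at the first step. JUP had 1828 and 2421 normalised counts in cjiPSCs in TESR medium and 3156 and 1783 in cjPSCM. Pre-ME from TESR had 885 and 873 without ActA and 636 and 671 with ActA, and pre-ME from cjPSCM had 782 and 607 without and 979 and 975 with ActA. Every pre-ME library was below every cjiPSC library of its medium. JUP fell by 1.47 ± 0.17 in TESR (adjusted p = 7.41e-06) and by 1.56 ± 0.17 in cjPSCM (adjusted p = 7.14e-06), and all day 4 libraries, at 902 to 1237, were still below the cjiPSCs. In cjPGCLCs JUP was 0.42 ± 0.15 above pre-ME over the mean of the arms (adjusted p = 0.0239). This call was lost without any of 5 libraries (adjusted p up to 0.118). From pre-ME to cjPGCLCs the means went from 977 to 1088 with ActA and from 695 to 1122 without.

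The plakophilins, which link the plaque laterally, divided. PKP2, the form found in most desmosomes, had 689 and 977 normalised counts in cjiPSCs in TESR medium and 358 and 448 in cjPSCM. It was 1.06 ± 0.25 lower in cjPSCM on the log2 scale (adjusted p = 0.00296). Pre-ME from TESR had 1305 and 1051 without ActA and 918 and 708 with ActA. Pre-ME from cjPSCM had 624 and 385 without and 405 and 240 with ActA. On day 4 PKP2 ranged from 214 to 761. cjPGCLCs lay above the somatic cells of the same arm, but the fractions did not pass the test (adjusted p = 0.0603 without and 0.247 with ActA). Neither fraction differed from pre-ME in PKP2 by the test. PKP4 lay between 949 and 2123 in all libraries. It rose from cjiPSCs to pre-ME by 0.54 ± 0.13 in TESR and by 0.59 ± 0.14 in cjPSCM (adjusted p = 0.00453 and 0.00377), and in cjPSCM the call was lost without cjiPSC replicate 1 (0.32, adjusted p = 0.103). PKP4 then fell by 0.53 ± 0.11 in somatic cells and by 0.50 ± 0.11 in cjPGCLCs (adjusted p = 0.000543 and 0.000859).

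PKP1, the plakophilin of suprabasal epidermis, was low and was higher with ActA in pre-ME of both media, but not on day 4. In pre-ME from cjPSCM it had 6 and 3 reads without ActA (3.54 and 2.97 normalised counts) and 23 and 16 with ActA (19.2 and 22.5). In pre-ME from TESR it had 18 and 17 reads without ActA (9.88 and 7.95) and 59 and 55 with ActA (32.3 and 29.2). The replicates with ActA lay above those without in both media. PKP1 was called in cjPSCM (2.58 ± 0.55, adjusted p = 0.00466) and rose by 1.78 ± 0.41 in TESR (adjusted p = 0.0102), where leaving out any 1 of the 4 libraries lost the call (adjusted p = 0.0507 to 0.166). On day 4 somatic cells had 10.6 and 8.94 normalised counts with ActA and 27.7 and 15.5 without. cjPGCLCs had 4.23 and 5.69 with ActA and 9.87 and 20.5 without. The ActA arms were not tested against each other on day 4. Between the media of cjiPSCs PKP1 was called as lower in cjPSCM (-2.26 ± 0.60, adjusted p = 0.00763), on 34 and 10 reads against 1 and 5. This call was lost without cjPSCM replicate 1 (-1.26, adjusted p = 0.123) or TESR replicate 1 (adjusted p = 0.0722), and without cjPSCM replicate 2 the value was -4.06.

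The plakins PPL and EVPL, which bind filaments at the plaque of stratified epithelium, stayed at or below 46.2 normalised counts. PPL was called in 1 comparison: without ActA it had 44 and 34.7 in cjPGCLCs and 13.8 and 6.19 in somatic cells (2.09 ± 0.59, adjusted p = 0.0319), and the call was lost without any 1 of these 4 libraries (adjusted p = 0.0618 to 0.336). With ActA, where cjPGCLCs had 19.4 and 4.27 and somatic cells 1.77 and 2.98, it did not pass. Between the media of cjiPSCs PPL was 1.48 ± 0.53 lower on the log2 scale in cjPSCM (adjusted p = 0.0389, and 0.0514 to 0.228 without 3 of the 4 libraries in turn), and it was 1.54 ± 0.53 lower in somatic cells than in pre-ME, where the ranges overlapped (adjusted p = 0.0209, and 0.0715 to 0.0821 without any of 3 libraries). EVPL had 4.61 to 8.85 in the 4 somatic libraries and 18.3 to 25 in their pre-ME, and it fell by 1.63 ± 0.40 (adjusted p = 0.00235).

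**Figure D2:**
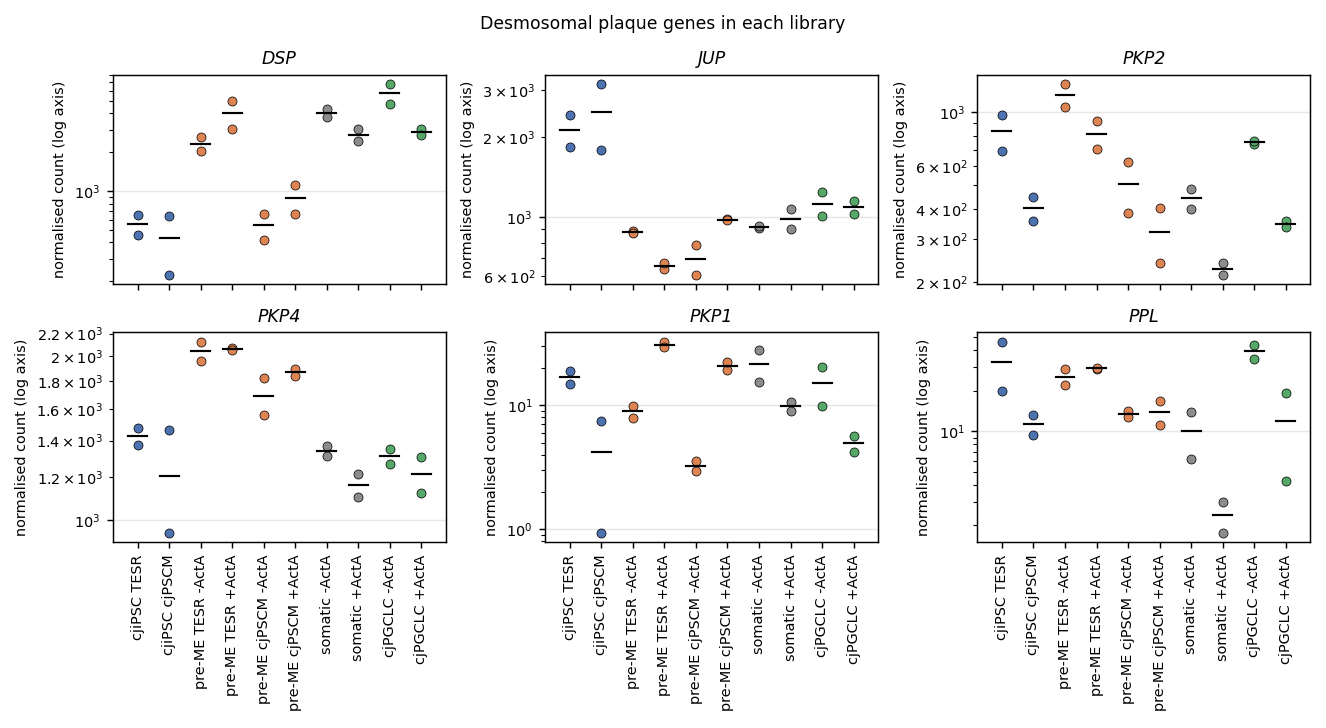
Normalised counts (log axes) of DSP, JUP, PKP2, PKP4, PKP1 and PPL in each library. Points are libraries, 2 for each condition, and the line is their mean; colours mark cjiPSCs (blue), pre-ME (orange), somatic cells (grey) and cjPGCLCs (green). DSP is at most 1106 in cjiPSCs and in pre-ME from cjPSCM and at least 2033 elsewhere, whereas JUP is highest in cjiPSCs.

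Among the desmosomal cadherins DSC2, the desmocollin of simple epithelium, was highest in cjiPSCs in cjPSCM. It had 391 and 419.9 normalised counts in cjiPSCs in TESR medium and 1346 and 1032 in cjPSCM. Pre-ME from TESR had 306 and 292 without ActA and 257 and 219 with ActA, and pre-ME from cjPSCM had 402 and 405 without and 336 and 324 with ActA. The replicates of the 2 media did not overlap in cjiPSCs, and pre-ME lay below cjiPSCs in each medium. DSC2 was 2.91-fold higher in cjPSCM (1.54 ± 0.17, adjusted p = 3.31e-06) and fell on the way to pre-ME by 1.68 ± 0.14 in cjPSCM (adjusted p = 4.45e-07) and by 0.59 ± 0.15 in TESR (adjusted p = 0.00436). These comparisons share the cjiPSC libraries.

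On day 4 DSC2 and DSG2, 2 of the 3 tested desmosomal cadherins, were higher in the double-positive cells. DSC2 had 665 and 547 in cjPGCLCs and 436 and 382 in somatic cells without ActA, and 695 and 502 against 319 and 271 with ActA. DSG2, the desmoglein of simple epithelium, had 1178 and 933 in cjPGCLCs and 459 and 360.5 in somatic cells without ActA, and 576 and 434 against 260.3 and 240.01 with ActA. The fractions did not overlap for either gene in either arm. DSC2 was 0.59 ± 0.18 higher in cjPGCLCs without ActA (adjusted p = 0.0427) and 1.04 ± 0.18 higher with ActA (adjusted p = 0.00218). DSG2 was 1.39 ± 0.23 higher without ActA (adjusted p = 0.000847) and 1.03 ± 0.24 higher with ActA (adjusted p = 0.0181).

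Leaving out 1 library ended some of these calls. Without ActA the call of DSG2 was kept without any 1 library, whereas that of DSC2 was lost without each of the 4 (adjusted p = 0.055 to 0.359). With ActA, DSG2 was lost without somatic replicate 1 or 2 or cjPGCLC replicate 1 (adjusted p = 0.101, 0.202 and 0.27), and DSC2 without somatic replicate 2 or cjPGCLC replicate 1 (0.0636 and 0.0679). Against the pre-ME they came from, cjPGCLCs rose by 0.72 ± 0.12 in DSC2 and by 1.16 ± 0.16 in DSG2 (adjusted p = 9.26e-05 and 1.37e-05), and both stayed past the threshold without any 1 library. Somatic cells did not differ from pre-ME in either gene by the test.

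DSC3, a desmocollin of stratified epithelium, was expressed at low levels. It had 43.5 and 37.2 normalised counts in cjiPSCs in TESR medium and 36.7 and 22.2 in cjPSCM. All 8 pre-ME libraries had 3.34 to 17.8. It fell by 1.66 ± 0.34 in TESR (adjusted p = 0.00111) and was called in cjPSCM (-2.09 ± 0.42, adjusted p = 0.0015, and 0.0696 without cjiPSC replicate 1). cjPGCLCs, with 15.8 to 22.8, rose above their pre-ME by 1.42 ± 0.38 over the mean of the arms (adjusted p = 0.00464), although the ranges overlapped. The arms were unlike: from pre-ME to cjPGCLCs the means went from 3.78 to 19.9 with ActA and from 13.3 to 17.0 without. Somatic cells had 6.92 and 1.55 without ActA and 8.85 and 7.45 with ActA, below the cjPGCLCs of either arm, but the fractions did not pass the test (adjusted p = 0.0622 without and 0.246 with ActA). In pre-ME from cjPSCM DSC3 fell by 1.78 ± 0.61 with ActA (adjusted p = 0.0489), from 15 and 18 reads to 4 and 3, and leaving out any of 3 libraries lost this call (adjusted p = 0.122 to 0.296), as did DESeq2 (0.0734).

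PERP, a tetraspan membrane protein needed for stable desmosomes, had 3106 and 3152 normalised counts in cjiPSCs in TESR medium and 2517 and 1263 in cjPSCM. It was 0.74 ± 0.24 lower in cjPSCM (adjusted p = 0.0217). This call was lost without either TESR replicate (adjusted p = 0.0822 and 0.0517) or cjPSCM replicate 2 (-0.31, adjusted p = 0.203), and without cjPSCM replicate 1 the value was -1.35. In TESR it fell to pre-ME by 0.79 ± 0.20 (adjusted p = 0.00436). In cjPSCM the change was -0.58 ± 0.20 (adjusted p = 0.0359), which overlapped and came to 0.022 without cjiPSC replicate 1 and to -1.01 without replicate 2. It was also lost without replicate 1 or 2 of the pre-ME with ActA or replicate 1 of that without (adjusted p = 0.0859, 0.0645 and 0.104). On day 4 without ActA, PERP had 2571 and 2158 in cjPGCLCs and 1102 and 951 in somatic cells (1.22 ± 0.24, adjusted p = 0.00321, and 0.0616 without somatic replicate 2). Over pre-ME cjPGCLCs rose by 0.49 ± 0.17 (adjusted p = 0.0199), with ranges that overlapped and a call that was lost without any of 4 libraries (adjusted p = 0.0558 to 0.0836). With ActA the levels were 1329 and 1271 against 894 and 945, which did not overlap and did not pass the test.

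**Figure D3:**
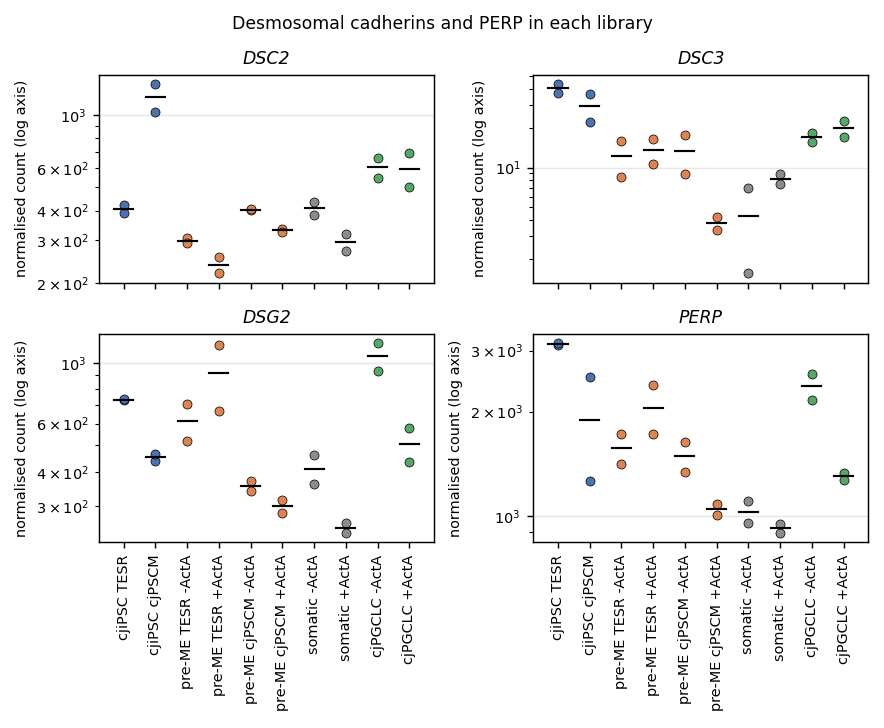
Normalised counts (log axes) of DSC2, DSC3, DSG2 and PERP in each library. Points are libraries, 2 for each condition, and the line is their mean; colours mark cjiPSCs (blue), pre-ME (orange), somatic cells (grey) and cjPGCLCs (green). DSC2 peaks in cjiPSCs in cjPSCM (1346 and 1032), and all 4 genes have cjPGCLC points above the somatic points of the same ActA arm.

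Vimentin changed with medium, stage and ActA. cjiPSCs had 37929 and 61659.5 normalised counts of VIM in TESR medium and 125212 and 84855 in cjPSCM. Pre-ME from TESR had 17428 and 16233 without ActA and 22832 and 21376 with ActA, and pre-ME from cjPSCM had 20552 and 25009 without and 45022 and 51248 with ActA. The 2 media did not overlap in cjiPSCs, and every pre-ME library was below every cjiPSC library of its medium. VIM was 1.06 ± 0.22 higher in cjPSCM than in TESR medium (adjusted p = 0.00138, and 0.0788 on the 4 libraries of this comparison alone). It fell from cjiPSCs to pre-ME by 1.35 ± 0.19 in TESR and by 1.64 ± 0.18 in cjPSCM (adjusted p = 3.18e-05 and 7.8e-06), and with ActA it was 1.06 ± 0.22 higher in pre-ME from cjPSCM (adjusted p = 0.00439). On day 4 it had 28816 to 37996 in somatic cells and 22572 to 39189 in cjPGCLCs, and no comparison with day 4 cells passed.

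Desmin, the filament of muscle, was highest in cjiPSCs in TESR medium. DES had 329.97 and 342 normalised counts in cjiPSCs in TESR medium, 57.5 and 142 in cjPSCM, 38.4 to 123 in pre-ME from TESR and 14.7 to 49.2 in pre-ME from cjPSCM. On day 4 it had 119 to 188 in somatic cells and 39.5 to 112 in cjPGCLCs. It was 1.81 ± 0.33 lower in cjPSCM than in TESR medium (adjusted p = 0.000396). DES was called as lower in pre-ME than in cjiPSCs in TESR (-2.40 ± 0.26, adjusted p = 3.16e-06) and as higher in somatic cells than in pre-ME (2.34 ± 0.27, adjusted p = 1.37e-06). In cjPSCM the fall to pre-ME was -1.74 ± 0.31 (adjusted p = 0.000584), and -1.004 without cjiPSC replicate 2. Without ActA it was 1.64 ± 0.37 lower on the log2 scale in cjPGCLCs (39.5 and 41) than in somatic cells (136 and 119), adjusted p = 0.00883, and 0.0642 without somatic replicate 1 and 0.0954 without cjPGCLC replicate 1. cjPGCLCs were 1.14 ± 0.28 above pre-ME, with an overlap (adjusted p = 0.00215). In pre-ME from TESR DES rose by 1.39 ± 0.33 with ActA (adjusted p = 0.0123, and 0.0979 to 0.166 without any of 3 libraries). Muscle markers did not take one course with DES. Of 4 tested, 3 were higher in somatic cells and 3 in cjPGCLCs than in pre-ME (28.8% and 29.7% of all genes). From TESR cjiPSCs to pre-ME, where DES fell, 1 was higher and 1 lower (19.3% and 21.5%). The summed level of the 5 in the table was 285 to 622 in TESR cjiPSCs, 271 to 1637 in their pre-ME, 113 to 608 in pre-ME from cjPSCM, 848 to 1785 in somatic cells and 927 to 1640.5 in cjPGCLCs, while MYOD1 had 3 reads at most in any library. Their part in the result was not tested.

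Nestin was present in every library. NES had between 10674 and 30629.5 normalised counts over all libraries. The lowest mean was that of cjPGCLCs without ActA (10674 and 12816, against 21011 and 23282 in somatic cells), a difference of -0.90 ± 0.23 (adjusted p = 0.0186) that was lost without each of the 4 libraries (adjusted p = 0.0504 to 0.18). In pre-ME from cjPSCM NES was 0.78 ± 0.23 higher with ActA (adjusted p = 0.0243), and the call was lost without replicate 1 with ActA (0.228) or replicate 2 without ActA (0.185). It was 0.41 ± 0.16 higher in somatic cells and 0.39 ± 0.16 lower on the log2 scale in cjPGCLCs than in pre-ME (adjusted p = 0.0392 and 0.0472), with ranges that overlapped. Leaving out single libraries lost both calls (adjusted p up to 0.168 and 0.174), as DESeq2's size factors did in cjPGCLCs (0.0552). The arms were unlike: with ActA the mean was 23532 in pre-ME, 25872 in somatic cells and 15782 in cjPGCLCs. Without ActA it was 13500 in pre-ME, 22147 in somatic cells and 11745 in cjPGCLCs. Of 5 neural progenitor markers 3 were tested, and their summed level was 9.42 to 105 in all libraries.

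**Figure D4:**
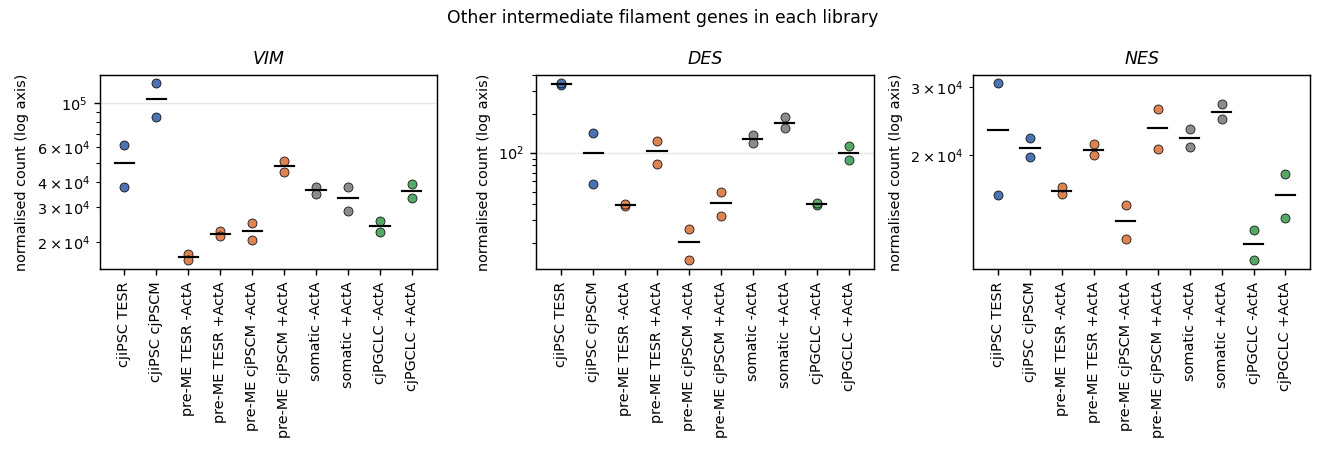
Normalised counts (log axes) of VIM, DES and NES in each library. Points are libraries, 2 for each condition, and the line is their mean; colours mark cjiPSCs (blue), pre-ME (orange), somatic cells (grey) and cjPGCLCs (green). VIM is highest in cjiPSCs in cjPSCM (125212 and 84855), and DES in cjiPSCs in TESR medium (329.97 and 342).

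The counts of members that passed the test are set here beside those of all genes, since many genes changed at each step. From TESR medium to cjPSCM 2 of the 19 tested members were higher and 8 lower, where 18.1% of all tested genes were higher and 18.1% lower, and 1 was called (PKP1, 9.18% of all genes). On the 4 libraries alone DSG2, PERP, PKP1, PPL and VIM did not pass (adjusted p = 0.0788 to 0.199), and PPL did not with DESeq2 (0.0625). From cjiPSCs to pre-ME in TESR 2 rose and 8 fell (all genes 19.3% and 21.5%) and 3 were called (DSP, DES and KRT76, 6.98%). In cjPSCM 1 rose and 9 fell (13.6% and 17.7%) and 2 were called (DSC3 and KRT76, 3.56%), KRT76 through the filter in both media. On the libraries of the cjPSCM comparison alone KRT8, KRT10, PERP and PKP4 did not pass (adjusted p = 0.0967 to 0.207). Thus 42.1% of the tested members fell at the step to pre-ME in TESR and 47.4% in cjPSCM, and DES, DSC2, DSC3, JUP, KRT10, KRT76, PERP and VIM fell in both media, with the limits given above for KRT10, KRT76 and PERP. Whether the step differed between the media was tested as a further interaction, chosen after the values were seen. It called 2 of the 19 members, DSC2 and DSP, and 8.06% of all genes.

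With ActA 15.8% of the tested members rose in pre-ME of each medium, and 0% fell in TESR and 5.26% in cjPSCM. In pre-ME from TESR 3 rose and 0 fell (5.63% and 3.2% of all genes) and 0 were called (2%). At an unadjusted p below 0.05 there were 6 higher and 1 lower, with 0 beyond the fold threshold, and DESeq2 gave 3 higher, 0 lower and 0 called. In pre-ME from cjPSCM 3 rose and 1 fell (11.4% and 9.54%) and 1 was called (PKP1, 2.11%). The interaction of ActA with the medium called 0 of 19 members and 0.399% of all genes, with 6 members at an unadjusted p below 0.05 and 0 by DESeq2.

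On the way to day 4, 6 members rose and 3 fell in somatic cells (28.8% and 29.6% of all genes), and DES, DSP and KRT8 were called (7.89%). In cjPGCLCs 10 rose and 2 fell (29.7% and 26.9%), and DSP and KRT8 were called (7.51%). The 10 were KRT8, KRT18, KRT19, DSP, JUP, PERP, DSC2, DSC3, DSG2 and DES. Both comparisons use the same 4 pre-ME libraries. Between the sorted fractions with ActA 2 members were higher in cjPGCLCs and 0 lower (3.68% and 1.16%) and 0 were called (1.58%), where 5 and 2 had an unadjusted p below 0.05, 1 of these beyond the fold threshold, and DESeq2 gave 2 higher, 1 lower and 0 called. Without ActA 4 were higher and 2 lower (6.67% and 2.96%) and PPL was called (2.84%). The interaction of sorting with ActA called 0 members and 0.0633% of all genes, with 1 member at an unadjusted p below 0.05 and 0 by DESeq2. The median log2 fold change of the 19 members ran from -0.58 (pre-ME over cjiPSCs in cjPSCM) to 0.49 (cjPGCLCs over pre-ME) in the 9 comparisons, and that of all tested genes from -0.03 to 0.03.

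**Figure D5:**
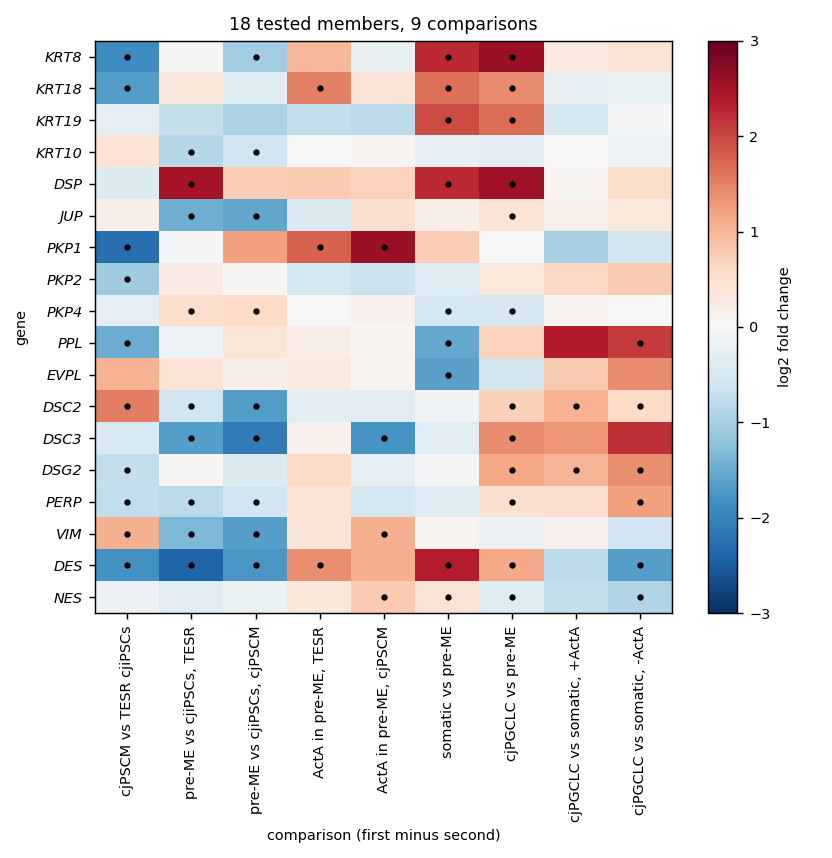
Log2 fold changes (colour, red higher and blue lower in the first-named cells) of 18 of the 19 tested members in the 9 comparisons; a dot marks an adjusted p below 0.05. KRT76 is left out because it had no read on day 4. KRT8, KRT18, KRT19 and DSP are red with a dot in both columns that compare day 4 cells with pre-ME, and VIM, JUP, DSC2, DSC3 and DES are blue with a dot in both columns that compare pre-ME with cjiPSCs.

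Genes that work beside the members were followed as 4 lists. Of 7 linkers of the plaque and the filaments (among them plectin, PLEC, and p120-catenin, CTNND1), 6 were tested and none was called in any comparison. CTNND1, named after its values were seen, was 0.82 ± 0.09 higher in somatic cells and 1.11 ± 0.09 higher in cjPGCLCs than in pre-ME (adjusted p = 1.48e-06 and 5.8e-08). Of 15 other intermediate filament genes 14 were tested. With ActA, 6 rose and 0 fell in pre-ME from cjPSCM (11.4% and 9.54% of all genes). The neurofilament genes NEFM and NEFL were called there at 2.72 ± 0.31 and 2.27 ± 0.20 (adjusted p = 2.87e-05 and 1.35e-06). In pre-ME from TESR 5 rose and 0 fell (5.63% and 3.2% of all genes), and none was called. NEFM and NEFL were 1.62 ± 0.30 and 1.68 ± 0.19 higher there (adjusted p = 0.0019 and 2.06e-05). The interaction of ActA with the medium called 0 of the 14. PRPH, which encodes peripherin of peripheral neurons, had 9.18 to 29.5 normalised counts in pre-ME from cjPSCM and 1115 to 2039 in the 8 day 4 libraries, 6.42 ± 0.31 higher in somatic cells and 6.57 ± 0.31 higher in cjPGCLCs (adjusted p = 6.9e-11 and 6.46e-11), while NEFM fell in both. In all, 2 rose and 5 fell in somatic cells (28.8% and 29.6% of all genes) and 2 rose and 8 fell in cjPGCLCs (29.7% and 26.9%).

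Of 10 transcription and splicing factors of epithelium 7 were tested between the day 4 fractions. Without ActA 3 were higher in cjPGCLCs and with ActA 2 (6.67% and 3.68% of all genes). GRHL1, GRHL2, GRHL3 and ESRP2 passed in neither arm. OVOL2, a repressor of mesenchymal genes, had 88.9 and 41 normalised counts in cjPGCLCs without ActA and 37.2 and 14.2 with ActA, and at most 1.77 in the 4 somatic libraries. ESRP1, an epithelial splicing regulator, had 324 and 202 in cjPGCLCs without ActA and 132 and 44.1 with ActA, and at most 3.54 in somatic cells. Without ActA OVOL2, ESRP1 and ELF3 were called as higher in cjPGCLCs (adjusted p = 0.000361, 0.000388 and 0.00157), and with ActA OVOL2 and ESRP1 (adjusted p = 0.00852 and 0.00744). OVOL2, which is in both of these counts, had at most 4 reads in any library of the other conditions. It passed the filter only through its reads in cjPGCLCs, so its higher level there followed from the filter and is a description. KRT8, KRT18, KRT19 and DSP passed the test between the fractions in neither arm.

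Of 6 transcription factors known from mesenchyme 5 were tested, and all 5 rose on day 4 in both fractions. Of all tested genes 28.8% rose in somatic cells and 29.7% in cjPGCLCs. TWIST1 had 32.7 to 97.6 normalised counts in pre-ME from cjPSCM, 2551 to 3927 in somatic cells and 1459 to 2394 in cjPGCLCs, and SNAI2 had 82.2 to 87.1, 1861 to 2564 and 1098 to 1438. They were called in somatic cells (5.93 ± 0.23 and 4.70 ± 0.15, adjusted p = 5.46e-12 and 4.4e-13) and in cjPGCLCs (5.32 ± 0.23 and 3.90 ± 0.14, adjusted p = 2.12e-11 and 3.16e-12). SNAI1 was also called in somatic cells. Without ActA 4 of the 5 were lower in cjPGCLCs than in somatic cells (2.96% of all genes).

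Markers of other cells that embryoid bodies can hold are given beside the day 4 rise of KRT8, KRT18, KRT19 and DSP. Of 7 markers of amnion-like cells and surface ectoderm, 6 were higher in somatic cells and 7 in cjPGCLCs than in pre-ME. Of all tested genes 28.8% were higher and 29.6% lower in somatic cells, and 29.7% and 26.9% in cjPGCLCs. GABRP and VTCN1 passed the filter only through day 4 cells, and WNT6 only through cjPGCLCs without ActA. Their rise there followed from the filter and is a description. The summed level of the 7 markers was 799 to 1319 in pre-ME from cjPSCM, 9046 to 10435 in somatic cells and 7854 to 9132 in cjPGCLCs, and none of the 7 was at 0 in all libraries of a fraction. The list is not specific to amnion-like cells: the paper counts TFAP2A and GATA3 among the PGC-associated genes of cjPGCLCs. GATA3 alone had 3116 to 3995 of the summed counts in cjPGCLCs and 4170 to 4737 in somatic cells. Of 8 fibroblast markers 5 were higher and 1 lower in somatic cells, and 4 were higher and 3 lower in cjPGCLCs, than in pre-ME, and their summed level was 4303 to 6331 in pre-ME, 20079 to 26327.5 in somatic cells and 5308 to 17524 in cjPGCLCs. Of 5 germ cell markers, 4 were higher in cjPGCLCs than in somatic cells in each ActA arm (3.68% of all genes with ActA and 6.67% without). NANOS3 passed the filter only through its reads in cjPGCLCs, so a higher level there followed from the filter. The part of the cell types marked here in the changes of the members was not tested.

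In the RefSeq order of marmoset genes (assembly calJac240_pri) KRT18 and KRT8 are next to each other, as the first 2 keratins of the type II cluster, and the desmosomal cadherins lie in one row that runs DSC3, DSC2, DSC1, DSG1, DSG4, DSG3, DSG2. Within that row the tested genes DSC3, DSC2 and DSG2 did not move together: from TESR medium to cjPSCM DSC2 rose by 1.54 and DSG2 fell by 0.72 (adjusted p = 0.0209). The DSG2 call was lost without TESR replicate 1 (adjusted p = 0.0834) or cjPSCM replicate 1 (0.07). In cjPGCLCs all 3 rose over pre-ME. Processed copies of KRT8 and KRT18 are known from primate genomes, and reads that match such a copy could be lost or split in the counting of both genes.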

How the data were processed

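Poly(A) RNA of 20 libraries was sequenced. The authors checked reads with FastQC 0.11.8, mapped them to calJac4 with STAR 2.7.0a, counted them with HTSeq 0.11 and deposited raw counts of each gene. They also deposited a normalised signal, the count divided by the library's DESeq2 size factor. The strand setting and annotation release are not given in the sources used here. Reads outside genes (10.6% to 23.2%) stayed out of the tests.

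Groups came from the sample labels. The test on raw counts was edgeR's quasi-likelihood test (edgeR 4.0.16, R 4.3.3; TMM, 1 coefficient per condition, 20 libraries, filter on low counts by condition), with Benjamini-Hochberg adjustment over 15797 genes. A gene was called at an adjusted p below 0.05 and a log2 fold change beyond 2, and in the interactions by the adjusted p alone. The code of the test was run on simulated counts with a single dispersion for all genes and large changes in few of them. That setting is simpler than these data, so the error rates of the comparisons here were not checked. A fixed list (VIM, DES, NES, KRT7, KRT8, KRT18, KRT19, DSP, JUP, PKP2, DSG2, DSC2, PERP, PPL, EVPL) was always named, with up to 3 other called members each way in a comparison and up to 3 called genes of each pathway list. The members and lists were chosen with earlier results of these data known. Replicate numbers were not used as pairs in the main test. Differences between replicates correlated between -0.19 and 0.23 over 45 pairs of conditions, with 8 above 0.1. Between pre-ME with and without ActA the correlation was 0.222 in TESR and 0.227 in cjPSCM, near the top of this range. Between the day 4 fractions it was 0.111 with and 0.027 without ActA, and between the media of cjiPSCs -0.017. A fit with the replicate number as a block is given below. Gene names were matched to RefSeq (46 of 47 members, all but KRT19). The smallest level reported as a bound is 3 counts, which covers counting error only. Alternatives were DESeq2 1.42.0, its size factors in edgeR, no filter, the libraries of a comparison alone, a replicate block and each library left out. KRT14, KRT20 and DSG1 were not analysed here.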

Additional observations from a re-analysis of the deposited data

Results flagged for a closer look

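The change from cjiPSCs to pre-ME differed between the 2 media for 2 members, by an interaction test that was chosen after the values were seen. DSP rose in TESR and did not pass in cjPSCM, and the difference of the log2 fold changes, cjPSCM minus TESR, was -1.74 ± 0.47 (adjusted p = 0.0303). The difference was -0.86 (adjusted p = 0.203) without cjPSCM cjiPSC replicate 2 and lost the call without any of 5 other libraries (adjusted p = 0.0594 to 0.12). DSC2 fell in both media, and further in cjPSCM, with a difference of -1.09 ± 0.21 (adjusted p = 0.00386) that held without any 1 library. These differences share the cjiPSC libraries with the comparison of the media, in which DSC2 started higher in cjPSCM.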

How the results depend on the processing

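Of 71 results of single genes past the adjusted p threshold, KRT7 included, 38 stayed past it under every alternative run and 33 lost it under at least 1. DESeq2 on all libraries lost 5, the libraries of a comparison alone 10, size factors 1 and no filter 0. Leaving out 1 library lost a call 95 times and turned the direction 2 times. Without cjPSCM cjiPSC replicate 1 the pre-ME change in cjPSCM reversed for KRT10 (0.051) and PERP (0.022), against -1.03 and -1.01 without replicate 2. The number of members called between the media, 1, was 2 with DESeq2 and with no filter, which both also tested KRT80, 0 on the 4 libraries alone, and 1 to 5 with a library left out. For pre-ME in cjPSCM it was 1 with DESeq2, against 2, and 1 to 4 with a library left out, and in TESR 3 to 4. For ActA it was 1 in place of 0 in TESR with no filter and on the 4 libraries alone, 0 to 1 with a library left out, and 1 to 2 in cjPSCM. For somatic cells it was 2 to 4 and for cjPGCLCs 2 with a library left out. Between the fractions it was 1 in place of 0 (with ActA) and 2 in place of 1 (without) with no filter, and 0 to 1 and 0 with a library left out. The added interaction called 1 to 4 members. With the replicate number as a block, the counts of members called were 1, 3, 2, 0, 1, 3, 2, 0 and 1 in the 9 comparisons and 0, 0 and 2 in the interactions, as without it. The block lost 1 gene result, KRT10 in cjPSCM (adjusted p = 0.059). Low counts limit KRT76, PKP1, PPL, EVPL and DSC3, and the 28 members not tested.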
